A study of Mus musculus with 4 samples.

Results

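This account compares mouse zygotes, the fertilised one-cell embryo, of an injected sample labelled 3.3S31A-inject with those of its own control, labelled 3.3S31A-con. The label names histone H3.3 with the residue change S31A, serine to alanine at position 31. Each group was 1 sample of total RNA, and the deposited table held 2 columns for each sample, called library 1 and library 2 here. A second experiment in the same table, labelled 3.3-MO, had 1 injected and 1 control sample with 2 libraries each, and only its control libraries are used below as further control values, apart from the H3.3 genes and a closing count of genes on opposite sides in the 2 experiments. The strain, the number of zygotes, the molecule injected, its dose, the injection given to the controls and the hour of collection are not given in the sources used here. Of 55291 features in the table, 8136 reached 10 CPM (counts scaled to library size) in at least 1 of the 2 S31A samples after their libraries were summed, and these are the measured genes. Genes were described where both injected libraries lay on 1 side of both control libraries. That held for 3235 of the 8136 (39.8%), with 1631 higher (20.0%) and 1604 lower (19.7%) in the injected sample. With 2 libraries against 2, a large share of genes would fall on 1 side by order alone. These shares, and the counts at any size below, are therefore not counts of genes that responded.

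The H3.3 variant is placed in chromatin outside DNA replication, by the HIRA complex at genes and by DAXX with ATRX at repeats. Its serine 31 sets it apart from the replication-dependent H3 proteins, which lack a serine there, and it is phosphorylated at mitosis and at active genes. In the zygote the sperm genome sheds its protamines and is repackaged with maternal histones, H3.3 among them, while the embryo runs on RNA stored in the egg and begins a first, weak round of transcription. Steady RNA at this stage is therefore mostly maternal, and a level reflects storage and decay as well as synthesis.

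With 1 sample in each group there was no test between injected and control zygotes. A gene was called higher or lower where the summed samples were 2-fold or more apart and both injected libraries lay on 1 side of both control libraries. Total assigned counts were 10436258 and 11264733 in the control libraries and 12186081 and 9908251 in the injected libraries, with 11372 to 11791 genes detected in each. The libraries of 1 sample differed from each other nearly as much as libraries of different samples: 34.4% of measured genes were at least 2-fold apart within the control, 35.6% within the injected sample and 37.1% to 41.1% between them. A control library had no count for 692 of the 8374 genes that reached 10 CPM in the other (8.26%), and the injected pair gave 667 of 8216 (8.12%). Intervals given below are exact 95% Clopper-Pearson intervals on the log2 ratio, and they cover counting error only, not this spread. Nothing in the sources says whether the 2 libraries of a sample came from separate zygotes. Values written as 2 numbers against 2 numbers are CPM in control libraries 1 and 2 against injected libraries 1 and 2.

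The label names H3.3, so the genes that encode it were read first. In mouse, H3f3b and H3f3a encode the same protein, and Gm6485 and Gm37486 are annotated as processed pseudogenes of a single exon, intronless copies whose sequence is close to that of the H3f3b coding region. The 27 coding bases around serine 31 are shown because they hold the codon that the label names and show how alike the genes are. They were read from GENCODE M21 transcripts on build mm10, sense strand, for codons 27 to 35 counted without the first methionine, with codon 31 in capitals.
H3f3b: aaaagcgcgcccTCTaccggcggggtg
H3f3a: aagagtgcgcccTCTactggaggggtg
Gm6485: aaaagcgcgcccTCTaccggcggtgtg
Gm37486: aaaagcgcgcccTCTaccggcagggtg
All 4 carry the serine codon TCT. Over these bases each of the copies differed from H3f3b at 1 base, and H3f3a differed from it at 4. The translated H3f3b and H3f3a products were identical over 136 residues.

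Counts assigned to the copies were far higher in the injected sample. Gm6485 (chr3:104752727-104753165, mm10) had 168 and 154 CPM in the control libraries and 8030 and 16870 CPM after injection, a log2 ratio of 6.21 (74.03-fold, interval 6.16 to 6.26), and 5.61 with injected library 2 left out. Gm37486 (chr1:178299396-178299800) had 125 and 96.3 CPM in the control libraries and 5697 and 11560 CPM after injection, a log2 ratio of 6.23 (75.2-fold, interval 6.17 to 6.29). The injected libraries stood apart from all control libraries at both copies, with library 2 about as far above library 1 at one copy as at the other. H3f3b (chr11:116021912-116027962) had 1429 and 1787 CPM in the control libraries and 2396 and 2720 CPM after injection, a log2 ratio of 0.65 (1.57-fold), so that its libraries did not overlap and the difference was below 2-fold. H3f3a (chr1:180800832-180813943) had 646 and 553 CPM in the control libraries and 476 and 641 CPM after injection, a log2 ratio of -0.12, and its groups overlapped. Reads of a sequence shared by H3f3b and its copies can be assigned to any of them, so the split of counts between these 3 genes is uncertain. H3f3c, another measured feature with an H3.3 symbol, was outside the naming rule, so the genes given here are not all the H3.3-like features. The counts hold no bases, so serine and alanine codons cannot be told apart in them. In the other experiment's control the copies stood at 139.9 and 181 CPM (Gm6485) and 118 and 152 CPM (Gm37486), close to the S31A control.

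**Figure D1:**
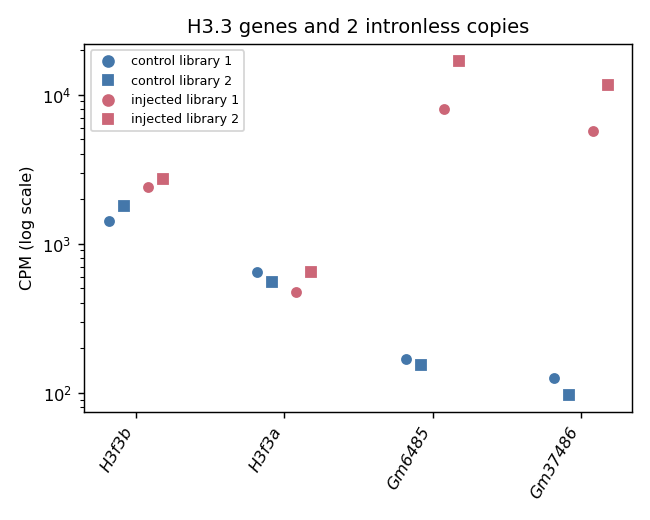
CPM (log axis) of H3f3b, H3f3a, Gm6485 and Gm37486 in the 2 control and 2 injected libraries. The copies lie between 96.3 and 168 CPM in the control libraries and between 5697 and 16870 CPM in the injected libraries, H3f3b is higher by less than 2-fold, and the H3f3a libraries overlap.

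The copies were also the 2 genes that edgeR called over the 4 libraries. Its quasi-likelihood test with Benjamini-Hochberg adjustment passed 2 of 8136 genes (0.0246%), Gm37486 and Gm6485, each with an adjusted p of 0.0461 in edgeR, and 492 genes had an unadjusted p below 0.05. DESeq2 on the same 4 libraries called 595 genes, 288 higher and 307 lower. H3f3c was called by neither, with an adjusted p of 0.967 in edgeR and 0.86 in DESeq2. Each such p rests on how far the columns of 1 sample lie apart, possibly a technical spread, and does not compare the conditions. edgeR called 0 genes when either control library was left out, with 457 and 556 genes at an unadjusted p below 0.05 without control library 1 and 2.

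By size and side, 745 measured genes were called higher (9.16%) and 929 lower (11.4%), together 1674 (20.6%). The median log2 ratio of all measured genes was 0.02. Without the demand that libraries lie on 1 side, 1137 genes reached 2-fold on the higher side and 1306 on the lower side. Of the 745 called higher, 397 also lay above both control libraries of the other experiment, and of the 929 called lower, 611 lay below them. A library with no count was present for 175 of the genes called higher and 246 of those called lower. At the 2-fold limit genes just inside were Far1 (log2 ratio 1.001) and Gm10184 (-1.001), and the gene just outside it on the higher side was Zbtb34 (0.999).

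**Figure D2:**
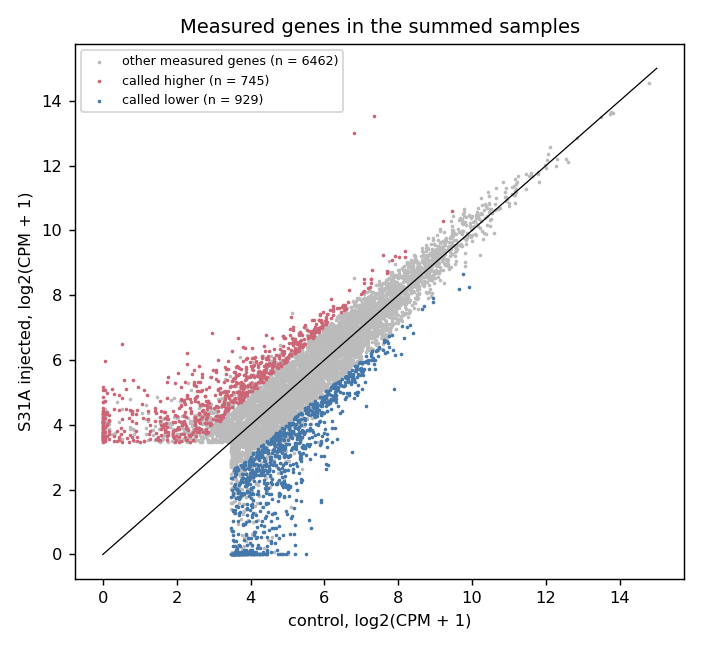
Each point is 1 of 8136 measured genes, with log2(CPM + 1) of the summed control sample on the x axis and of the summed injected sample on the y axis, and the diagonal marks equal levels. Called genes (745 higher, 929 lower) lie mostly at low levels, and the 2 points far above the diagonal at the control level of about 7 are the H3.3 copies.

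Calls were concentrated among weakly expressed genes. Among 925 genes with a mean below 10 CPM over the summed samples, 20.1% were called higher and 25.9% lower, and 59.6% had a library at 0 counts. A gene in this class was measured only because 1 sample reached 10 CPM, so its samples had to differ. At 50 to 100 CPM (1428 genes) the shares were 7.07% and 7.14%, and above 500 CPM (323 genes) 1.24% and 0.929%. The share of genes whose libraries lay on 1 side at any size did not fall in the same way, from 48.1% in the lowest class to 35.4% at 10 to 20 CPM and 47.7% above 500 CPM. Among highly expressed genes the libraries thus lay on 1 side about as often, but the samples differed by less.

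**Figure D3:**
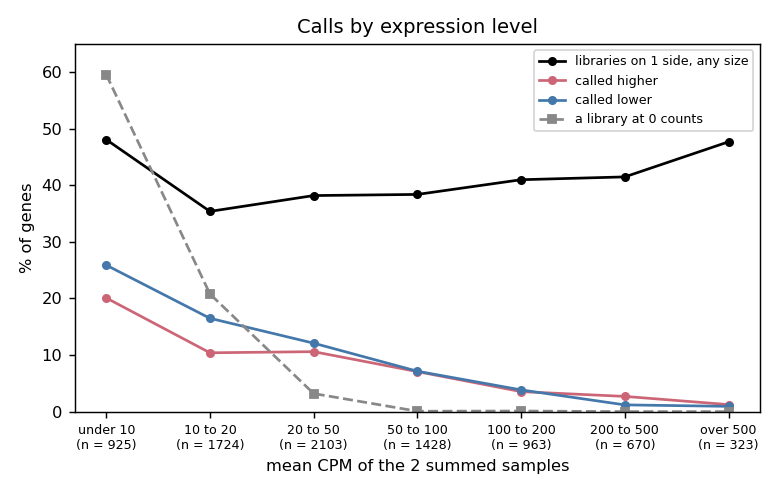
Percent of genes (y axis) by mean CPM class (x axis, number of genes under each class). The shares called higher and lower and the share with a library at 0 counts fall from 20.1%, 25.9% and 59.6% in the lowest class towards 0, while the share with libraries on 1 side stays between 35.4% and 48.1%.

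Abundant genes, with a mean of 200 CPM or more, give the best counted differences. Of 993 such genes 22 were called higher and 11 lower. Sec22a (chr16:35311131-35363918), which encodes a protein of endoplasmic reticulum to Golgi transport, had 162 and 149 CPM in the control libraries and 432 and 452 CPM after injection (log2 ratio 1.503, interval 1.45 to 1.56). Its libraries agreed closely within each sample, and the log2 ratio was 1.45 to 1.58 with any 1 library left out. Klhl9 (chr4:88718292-88722465), a substrate adaptor of cullin ubiquitin ligases in mitosis, had 209 and 272 CPM in the control libraries and 602 and 584 CPM after injection (log2 ratio 1.29). Asf1a (chr10:53596757-53609225), which hands histones H3 and H4 to the HIRA and CAF-1 assembly factors, had 239 and 216 CPM in the control libraries and 492 and 609 CPM after injection (log2 ratio 1.26, interval 1.21 to 1.31, 1.09 to 1.39 with any 1 library left out). Both lay above all 4 control libraries of the series, where the other experiment's control gave 279 and 190.4 CPM for Klhl9 and 229 and 165 CPM for Asf1a. Lrp6, a Wnt co-receptor, had 114 and 153 CPM in the control libraries and 362 and 292 CPM after injection (log2 ratio 1.30). Arhgap28, a GTPase-activating protein, had 169 and 136 against 373 and 346 CPM (log2 ratio 1.25), and Ndfip1, an adaptor of NEDD4-family ubiquitin ligases, had 132 and 169.5 against 370.5 and 346 CPM (log2 ratio 1.25). In these 6 genes the lowest injected library lay well above the highest control library.

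For other abundant genes called higher, 1 library set the size. Zfp979, a zinc finger gene, had 277 and 108 CPM in the control libraries and 655 and 534 CPM after injection (log2 ratio 1.66, 2.50 without control library 1). Sugt1, a co-chaperone of HSP90 at the kinetochore, had 88.1 and 176 against 314 and 414 CPM (log2 ratio 1.42, 2.04 without control library 2). Zc3h6, a CCCH zinc finger gene and the most abundant of them, had 576 and 806 CPM in the control libraries and 1549 and 1577 CPM after injection (log2 ratio 1.17), just under 2-fold (0.97) without control library 1. Fam199x had 183 and 394 against 618 and 703 CPM (log2 ratio 1.17), with 0.76 and 1.86 without control library 1 and 2, and overlapped the other experiment's control at 712 and 349 CPM.

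Among the abundant genes called lower, Tfe3 (chrX:7762560-7775202), a transcription factor of lysosome and autophagy genes, was the furthest and the most even, with 307 and 362 CPM in the control libraries and 114 and 114 CPM after injection (log2 ratio -1.56, interval -1.63 to -1.49, -1.65 to -1.41 with any 1 library left out). The other 8 abundant genes called lower and named by the rule all came within 2-fold when some 1 library was left out. Pfdn4, a prefoldin subunit, had 769.9 and 833 against 195 and 417 CPM (log2 ratio -1.46, -0.97 without injected library 1 and -2.07 without injected library 2). Dnajb1, an HSP40 co-chaperone, had 257 and 377 against 111 and 165 CPM (log2 ratio -1.25, -0.91 without control library 2 and -0.98 without injected library 1). Riok1, a kinase of small ribosomal subunit maturation, had 812 and 892 against 346 and 473 CPM (log2 ratio -1.09, -0.88 without injected library 1 and -0.99 without control library 2). Dkc1, the pseudouridine synthase of small nucleolar particles, had 317 and 236 against 74.1 and 203 CPM (log2 ratio -1.07), and -0.47, -1.92 and -0.83 without injected library 1, injected library 2 and control library 1. The remaining 4, Umodl1, Sfr1, Tubb4b and Tbc1d14, had log2 ratios of -1.16, -1.09, -1.04 and -1.04. Umodl1 was at -0.79 without control library 2. Sfr1 was at -0.52, -1.87 and -0.97 without injected library 1, injected library 2 and control library 2. Tubb4b was at -0.61 without control library 2 and -0.64 without injected library 1. Tbc1d14 was at -0.87 without control library 1 and -0.85 without injected library 2. Pfdn4 and Tbc1d14 did not lie below all 4 control libraries of the series.

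**Figure D4:**
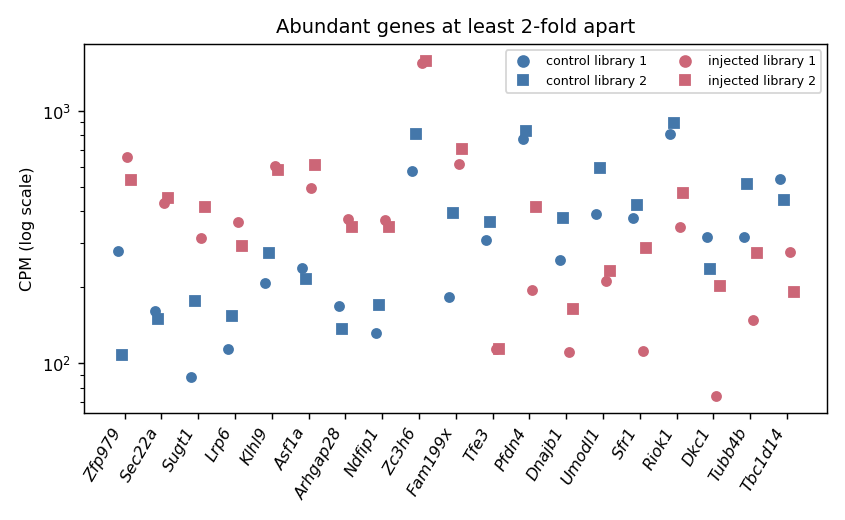
CPM (log axis) of the 19 abundant genes named by the rule, 10 called higher on the left and 9 called lower on the right, with circles and squares for library 1 and library 2 of each sample. Sec22a, Klhl9 and Tfe3 show tight libraries and wide gaps, while Dkc1 and Sfr1 show 1 injected library close to the control.

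Because 1 library decided so many ratios, each of the 261 called genes that the naming rule gave was recomputed with every library left out in turn. Of these, 179 stayed at least 2-fold on the same side, and 56 also moved by no more than 1.5-fold, 29 called higher and 27 lower. Of these 56, 42 lay beyond all 4 control libraries of the series. The called genes described from here on are among the 56 unless a library is named or the text says that they are not. This choice was made after their values were seen.

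The largest even differences were of genes with no or almost no count in 1 sample. Simc1, which binds SUMO chains, had 0 and 0 CPM in the control libraries and 35.3 and 34.5 CPM after injection (at least 261-fold higher, against a floor of 3 counts over the summed control). Such folds, here and below, are bounds for counting error only. Of genes that reached 10 CPM in a library, 8.26% in the control and 8.12% in the injected sample had no count in the other library. Reep3, which clears endoplasmic reticulum from mitotic chromosomes, had 0 and 0 against 26.5 and 29.6 CPM (at least 208-fold), and Gtf3c6, a subunit of the RNA polymerase III factor TFIIIC, had 0 and 0 against 23.9 and 26.1 CPM (at least 186-fold). Aff4, the scaffold of the super elongation complex, had 0 and 0 against 16.7 and 18.01 CPM, Kcng4, a potassium channel subunit, had 0 and 0 against 15.5 and 17.6 CPM, and Slc17a5, the lysosomal sialic acid carrier, had 0 and 0 against 12.3 and 13.6 CPM. In each of these the 2 injected libraries gave like values, but the genes had been chosen for this. Each had to move by no more than 1.5-fold with any 1 library left out. Their likeness is therefore not further evidence of a difference. Some of these genes at 0 in the S31A control had counts in control zygotes of the other experiment. There Simc1 had 5.31 and 29.5 CPM, Gtf3c6 12.9 and 16.3 CPM and Aff4 7.41 and 11.6 CPM. The libraries of that other control detected 15156 and 14895 genes, against 11372 and 11768 in the S31A control libraries. The part of this difference in the zeros was not tested. Over all 53 genes called higher with 0 counts in both S31A control libraries, 51 had counts in that other control and 14 had 10 CPM or more there.

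The lower side held the mirror case, genes with no or almost no count after injection. Cldn12, a tight-junction claudin, had 27.3 and 29.1 CPM in the control libraries and 0 and 0 CPM after injection (at least 202-fold lower, against 3 counts over the summed injected sample). Sh3gl2, an endophilin of endocytic vesicles, had 17.4 and 14.2 against 0 and 0 CPM (at least 112-fold), Tbc1d7, a subunit of the TSC complex that restrains mTORC1, had 12.9 and 13.8 against 0 and 0 CPM (at least 95.3-fold), and Snapc5, of the complex that starts small nuclear RNA genes, had 12.8 and 12.2 against 0 and 0 CPM (at least 88.99-fold). Tarsl2, a threonyl-tRNA synthetase paralogue, had 11.8 and 11.6 against 0 and 0 CPM, and the other experiment's control overlapped the injected libraries with 0 and 2.58 CPM. Klhl25, another cullin adaptor and the gene furthest lower by this ranking, had 27.4 and 59.4 against 0 and 0 CPM (at least 313-fold lower), a log2 ratio of -8.91 that was -7.78 without control library 2. Of 65 genes called lower with 0 counts in both injected libraries, 62 had counts in the other experiment's control and 20 had 10 CPM or more there.

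Genes of functions that bear on H3.3 and chromatin were counted in lists, each read against the 9.16% and 11.4% of all measured genes called higher and lower. Of 25 measured genes of H3.3 deposition and remodelling, 1 was called higher and 2 lower, with a median log2 ratio of 0.09. The member called higher was Asf1a, described above. Its paralogue Asf1b had 163 and 164 against 261 and 268 CPM (log2 ratio 0.69), and lay on the higher side without reaching 2-fold. Npm2, nucleoplasmin, the egg histone chaperone that helps unpack sperm chromatin, had 86.3 and 114 CPM in the control libraries and 32.8 and 27.9 CPM after injection (log2 ratio -1.71, interval -1.84 to -1.59) and was below all 4 control libraries. Ipo4, the importin that carries H3 and H4 into the nucleus, was also called lower, with 11.03 and 17.4 against 0 and 0.953 CPM (log2 ratio -4.81), -3.77 without injected library 1 and -6.96 without injected library 2. The HIRA partner Ubn1 had 159.9 and 263 against 133 and 98.9 CPM (log2 ratio -0.85), below both controls in both libraries but under 2-fold, and Ubn2, Atrx and Nasp had overlapping libraries with log2 ratios of 0.34, -0.02 and 0.10. Asf1b, Ubn1, Ubn2, Atrx and Nasp were chosen after their values were seen.

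Of 19 measured kinases and phosphatases of H3 tails, 1 was called higher and 3 lower, although 6 lay higher and 4 lower at any size and the median log2 ratio was 0.35. Chek1, the most abundant of them and a checkpoint kinase that can phosphorylate serine 31, had 1146 and 912 against 1351 and 1447 CPM (log2 ratio 0.44), higher on 1 side but under 2-fold. Pak1, a kinase of the PAK family, had 139 and 150.5 against 59.5 and 67.6 CPM (log2 ratio -1.20, interval -1.30 to -1.11). Haspin, which phosphorylates the H3 threonine that docks the Aurora B complex, had 108 and 115 against 17.8 and 39.8 CPM (log2 ratio -2.01). Its log2 ratio was -1.51 and -2.67 without injected library 1 and 2. Cdca2, which brings a phosphatase to mitotic chromatin, had 54.9 and 75.6 against 3.44 and 20.1 CPM (log2 ratio -2.59, -1.73 and -4.24 without injected library 1 and 2). Pbk, called higher, had 21.9 and 4.58 against 30.6 and 36.4 CPM (log2 ratio 1.35). It moved to 0.62 without control library 2 and to 2.85 without control library 1, and did not lie above all 4 control libraries.

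Enzymes that write and erase other chromatin marks showed few steady differences. Among 14 measured genes of H3K9 methylation and heterochromatin, 1 was called higher and 3 lower, and Mphosph8, a subunit of the HUSH silencing complex, had 229.6 and 198 CPM in the control libraries and 87.2 and 77.3 CPM after injection (log2 ratio -1.36, interval -1.45 to -1.29), with all 4 control libraries of the series above it. Among 13 genes of H3K36 methylation 0 were called higher and 2 lower, with Zmynd11, a reader of that mark on H3.3, at 15.2 and 18.4 against 7.12 and 6.99 CPM (log2 ratio -1.24). Histone acetylation had 6 called higher and 6 lower among 35 (17.1% each way), none of them steady by the rule above among those named. Of 32 members of the SWI/SNF, ISWI, INO80 and NuRD remodellers, 4 were called higher and 3 lower. Smarcad1, a remodeller of heterochromatin, had 52.8 and 49.8 against 163 and 129.9 CPM (log2 ratio 1.53), Smarca4 (BRG1), a maternal ATPase needed at genome activation, had 55.9 and 62.8 against 24.1 and 14.2 CPM (log2 ratio -1.59), and Chd5, a factor of histone-to-protamine exchange in sperm, had 11.7 and 9.85 against 0 and 0 CPM (at least 76.6-fold lower). Polycomb genes had 0 called higher and 1 lower among 23, and DNA methylation genes 1 and 2 among 15.

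Genes tied to genome activation gave no shared direction by count. Of 20 measured major genome activation genes, 0 were called higher and 4 lower (20.0%), while 7 lay higher and 7 lower at any size and the median log2 ratio was 0.23. The 4 were Dkc1, described above, and Polr2b, Nop56 and Cct2, with log2 ratios of -1.74, -1.74 and -1.04. Without control library 1 these were -1.05, -1.10 and -0.76. Polr2b was at -3.24 without injected library 1, and Cct2 at -0.91 without injected library 2. Npm1, a nucleolar chaperone and the most abundant of the list, had 524 and 549 against 721 and 744 CPM (log2 ratio 0.44), on the higher side. Of 8 measured genes of the 2-cell stage, 2 were called higher, the predicted genes Gm20767 (0 and 0 against 10.1 and 44.4 CPM) and Gm21761 (0 and 0 against 18.3 and 1.06 CPM), whose injected libraries were more than 4-fold apart. Without injected library 2 the log2 ratios were 6.43 and 7.29, and without injected library 1 8.45 and 3.22. Gm21761 did not lie above all 4 control libraries of the series. Of 12 pluripotency and lineage factors, 3 were called higher and 1 lower. Gata4, a factor of the primitive endoderm, had 9.93 and 8.90 against 81.9 and 35.1 CPM (log2 ratio 2.69, 1.86 without injected library 1), and Pou5f1 (OCT4) had 77.6 and 33.6 against 11.5 and 30.2 CPM (log2 ratio -1.47), within 2-fold without control library 1 (-0.74) and without injected library 1 (-0.89), and at -2.28 without injected library 2. The RNA polymerase II machinery had 8 called higher and 6 lower among 66, and polymerase I and III machinery 3 and 4 among 22, with Gtf3c6 and Snapc5 among them.

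The egg's own abundant messages differed little, and several families leaned to the higher side by less than 2-fold. All 12 measured oocyte Nlrp genes, innate-immune-like proteins of the egg cytoplasm, had log2 ratios above 0, from 0.02 (Nlrp9b) to 0.87 (Nlrp4e). Of these, 7 had libraries on the higher side and 0 on the lower, none reached 2-fold, and the median of 0.38 lay between 0.23 and 0.39 with any 1 library left out. Nlrp4f, the most abundant, had 2106 and 2553 against 2577 and 3049 CPM (log2 ratio 0.25). Of 5 Obox homeobox genes 3 lay on the higher side and 0 on the lower, with a median of 0.43, and Obox2, the most abundant, had 3432 and 3562 against 3254 and 3663 CPM (log2 ratio -0.03). The subcortical maternal complex had 0 called either way among 10, with Zbed3 at 4196 and 4183 against 4937 and 4252 CPM (log2 ratio 0.14), and the Tcl1 family 0 among 6. For comparison, 20.0% of all measured genes lay on the higher side and 19.7% on the lower.

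Oocyte growth factors and meiotic arrest receptors had 3 called higher and 1 lower among 20 and a median log2 ratio of 0.33. Bmp15, a growth factor secreted by the oocyte, had 4685 and 4170 against 5636 and 6612 CPM (log2 ratio 0.46, interval 0.44 to 0.47), above both controls but under 2-fold, and above the 3522 and 5487 CPM of the other control. The activin receptor Acvr1b had 6.89 and 7.86 against 19.2 and 27.96 CPM (log2 ratio 1.63), and the other control overlapped the injected libraries with 20.4 and 16.8 CPM. Among 10 egg coat and sperm-egg fusion genes 2 were called lower, Izumo1r (JUNO, the egg receptor for sperm IZUMO1) and Astl (ovastacin, which hardens the egg coat). Izumo1r had 131 and 101 against 22.4 and 84.4 CPM (log2 ratio -1.21), with -0.48 and -2.38 without injected library 1 and 2 and -0.995 without control library 1. Astl had 99.2 and 30.3 against 28.6 and 27.96 CPM (log2 ratio -1.17), and -0.07 without control library 1, and -1.78 without control library 2. Neither Izumo1r nor Astl lay below all 4 control libraries of the series. In the oocyte Fbxw cluster, Fbxw23 was the 1 called gene of 15, with 66.6 and 64.5 CPM in the control libraries and 24.6 and 23.7 CPM after injection (log2 ratio -1.44, interval -1.59 to -1.29), although the other control had 31.4 and 33.2 CPM.

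Genes that store, silence and destroy maternal messages had few calls. Deadenylation through BTG4 and CCR4-NOT had 1 called higher and 0 lower among 18, and Btg4, the adaptor that starts maternal RNA clearance, had 3032 and 2921 against 3198 and 3291 CPM (log2 ratio 0.12). Maternal RNA storage and translation control had 2 called higher and 5 lower among 35. Dazl, an RNA-binding translation activator and the most abundant of them, had 1674 and 1520 against 1890 and 2247 CPM (log2 ratio 0.36). Pabpn1l, an egg poly(A)-binding protein, had 244 and 293 against 47.4 and 102 CPM (log2 ratio -1.91). The log2 ratio of Pabpn1l was -1.42 and -2.53 without injected library 1 and 2, and it did not lie below all 4 control libraries of the series. Uridylation, decapping and exonuclease genes had 2 and 2 among 28, and Dis3l2, the exonuclease of uridylated RNA, had 12.9 and 15.7 against 5.03 and 5.72 CPM (log2 ratio -1.41), with both libraries of the other control below the injected ones at 2.32 and 3.71 CPM. RNA methylation genes had 2 called higher and 0 lower among 17, with 6 on the higher side and 0 on the lower at any size. Pre-mRNA splicing factors had 3 and 4 among 74 (4.05% and 5.41%). Prpf18, of the second splicing step, had 26.6 and 39.6 CPM in the control libraries and 179 and 131 CPM after injection (log2 ratio 2.24, interval 2.13 to 2.36), and the intron-binding helicase Aqr had 9.28 and 17.02 against 47.7 and 42.4 CPM (log2 ratio 1.76). Snrnp40, of the U5 particle, had 73.2 and 84.4 against 21.3 and 29.6 CPM (log2 ratio -1.66), and U2af2, which binds the polypyrimidine tract, had 11.1 and 15.98 against 4.44 and 3.07 CPM (log2 ratio -1.81). Snrnp40 and U2af2 overlapped the other experiment's control, at 30.2 and 23.7 CPM and 9.29 and 2.26 CPM.

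Genes of ribosomes and mitochondria were counted list by list, beside 9.16% called higher and 11.4% called lower over all measured genes. Of 32 measured mitochondrial ribosomal protein genes, 0 were called higher and 7 lower (21.9%), 1 lay higher and 9 lower at any size, and the median log2 ratio was -0.26, from -0.98 without injected library 2 to -0.15 without control library 2. Mrps31 had 16.9 and 12.96 against 5.28 and 3.07 CPM (log2 ratio -1.77), and Mrpl9, the most abundant, had 182 and 257 against 219 and 152 CPM (log2 ratio -0.22). Nuclear genes of oxidative phosphorylation had 1 called higher and 4 lower among 25. Ndufs4, of complex I, had 24.6 and 28.3 against 7.21 and 9.22 CPM (log2 ratio -1.70), and Atp5c1, the gamma subunit of ATP synthase, had 3.77 and 4.06 against 16.8 and 9.32 CPM (log2 ratio 1.76). The mitochondrially encoded mRNAs and rRNAs had 0 called among 11, and among the other 4 features measured on the mitochondrial genome, all tRNAs, mt-Tp was called lower (37.95 and 43.8 against 21.3 and 16.7 CPM), a gene outside the naming rule and not among the 56. The mitochondrial share of counts was 9.65% and 10.4% in the control and 7.13% and 9.59% in the injected libraries. Ribosome biogenesis had 5 called higher and 9 lower among 46 (19.6%), with Nvl, an ATPase of large subunit assembly, at 17 and 21.9 CPM in the control libraries and 0.586 and 1.17 CPM after injection (log2 ratio -4.39, interval -5.30 to -3.86). Cytosolic ribosomal protein genes had 0 and 2 among 13, with Rpl14 at 11.7 and 18.6 against 4.86 and 4.45 CPM (log2 ratio -1.69), a level that overlapped the other control at 7.63 and 4.68 CPM. Processed copies of ribosomal protein genes can share their reads, so these values are uncertain. Translation factors had 2 called higher and 5 lower among 46, and Eif2b4, of the exchange factor of eIF2, had 14.5 and 12.8 against 3.60 and 3.07 CPM (log2 ratio -1.99).

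Protein turnover genes were counted by kind. Of 17 Kelch-like cullin adaptors, 3 were called higher and 1 lower, 9 lay higher and 2 lower at any size, and the median log2 ratio of 0.48 lay between 0.38 and 0.68 with any 1 library left out. Besides Klhl9, Kbtbd7, the most abundant, had 820.4 and 939 against 1467 and 1780 CPM (log2 ratio 0.86, interval 0.84 to 0.89), under 2-fold. Klhl12, of the ligase that enlarges COPII coats, had 11.3 and 2.50 against 154 and 63.8 CPM (log2 ratio 4.05), and 5.46, 3.34 and 3.18 without control library 1, control library 2 and injected library 1. Ubiquitin-conjugating enzymes had 1 called higher and 0 lower among 23, with Ube2d3, the most abundant, at 1799 and 1847 against 2762 and 2996 CPM (log2 ratio 0.65). Deubiquitinases had 6 and 4 among 50, and Usp48 had 40.99 and 36.5 against 99.4 and 120.2 CPM (log2 ratio 1.49). Proteasome subunits had 1 called higher and 6 lower among 26 (23.1%), with 7 higher and 6 lower at any size and a median of -0.05. Heat shock factors and cytosolic chaperones had 1 and 6 among 30 (20.0%) and the most abundant, Dnajb4, had 1452 and 1473 against 1351 and 1981 CPM (log2 ratio 0.15) with overlapping libraries. Core autophagy genes had 3 and 2 among 23, and the 2 called lower were Tfe3, described above, and Map1lc3b. The log2 ratio of Map1lc3b was -1.16, and -0.82 without control library 2. Atg4b, the protease of ATG8 proteins, had 22.4 and 15.03 against 75.8 and 41.4 CPM (log2 ratio 1.70), and Pik3c3, the lipid kinase VPS34, had 11.03 and 6.65 against 20.6 and 29.7 CPM (log2 ratio 1.48), on the opposite side to Tfe3. The other control had 22.9 and 44.5 CPM for Pik3c3.

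**Figure D5:**
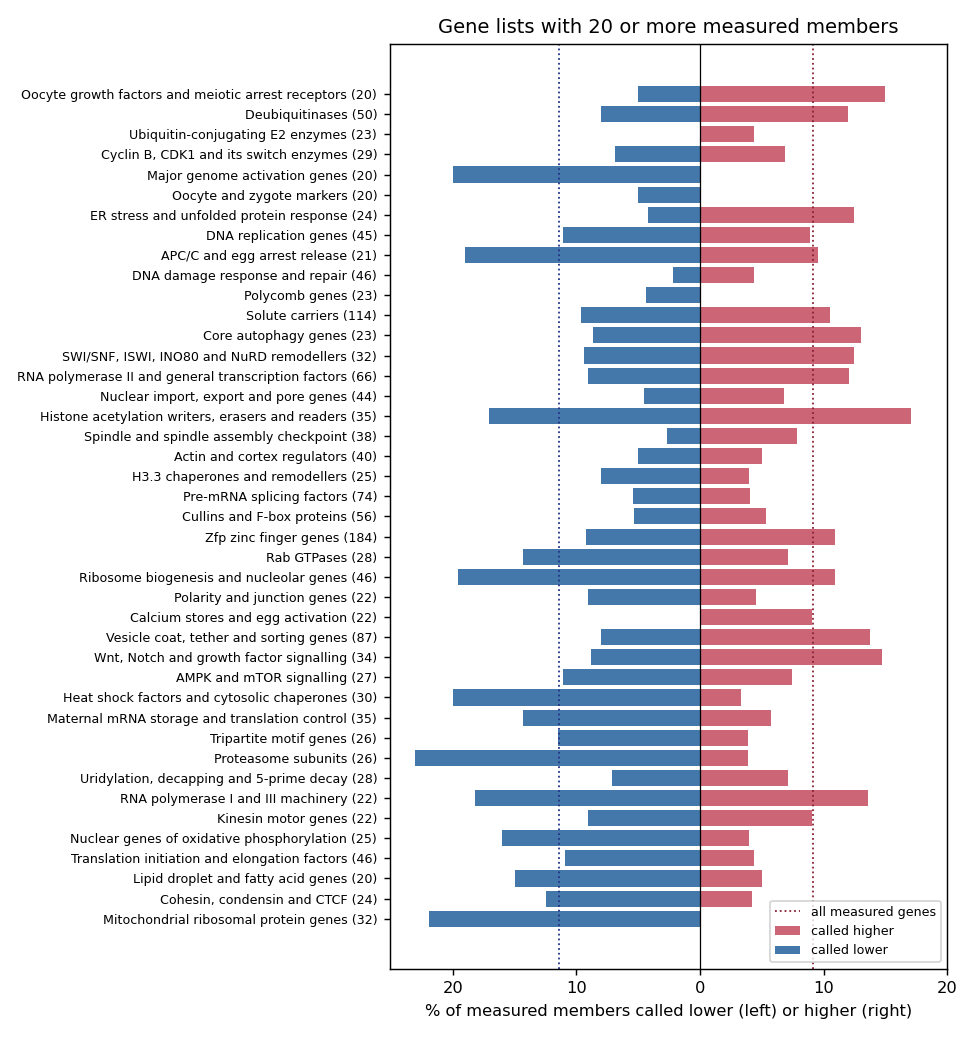
Bars give the percent of measured members called higher (right) or lower (left) in the 42 gene lists with 20 or more measured members, with the number measured in brackets and dotted lines at the 9.16% and 11.4% of all measured genes. Lists are ordered by median log2 ratio, highest at the top, and mitochondrial ribosomal protein genes stand at the bottom with 0 called higher and 21.9% lower.

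The cell cycle machinery of the zygote was represented by abundant messages that differed by less than 2-fold. Of 29 genes of cyclin B, CDK1 and their switch enzymes, 2 were called higher and 2 lower. Ccnb1 (cyclin B1) had 2205 and 2339 against 2747 and 3443 CPM (log2 ratio 0.42), on the higher side, and Cdc25a, a phosphatase that activates CDK1 and CDK2, had 69.8 and 87.2 CPM in the control libraries and 30.1 and 28.8 CPM after injection (log2 ratio -1.42, interval -1.55 to -1.29). Spindle and checkpoint genes had 3 and 1 among 38, with Mad2l2 at 29.04 and 38.8 against 8.04 and 9.64 CPM (log2 ratio -1.95). The most abundant, Aspm, had 2548 and 2017 against 2024 and 2806 CPM and overlapped. Among 22 kinesins 2 were called each way, and Kif17 had 211 and 248 CPM in the control libraries and 59.5 and 103 CPM after injection (log2 ratio -1.55, interval -1.63 to -1.47). DNA replication genes had 4 and 5 among 45, with Cdc7, the kinase that fires origins, at 38.5 and 42.3 against 82.8 and 148 CPM (log2 ratio 1.46), while the other control lay at 104 and 81.95 CPM. DNA damage genes had 2 and 1 among 46 (4.35% and 2.17%), and cohesin and condensin genes 1 and 3 among 24. The anaphase-promoting complex and egg arrest list had 2 and 4 among 21.

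Transport, signalling and cell death genes added single differences. Nuclear transport and pore genes had 3 called higher and 2 lower among 44, with 15 higher and 6 lower at any size. Nup155, a scaffold nucleoporin, had 15.2 and 15.6 CPM in the control libraries and 85.3 and 75.4 CPM after injection (log2 ratio 2.38, interval 2.22 to 2.56, 2.25 to 2.43 with any 1 library left out) and was among the most even low-level differences. Rab GTPases had 2 and 4 among 28, with Rab1b, of endoplasmic reticulum to Golgi traffic, at 69.8 and 56.8 against 16.2 and 10.5 CPM (log2 ratio -2.20). Vesicle coat, tether and sorting genes had 12 and 7 among 87, with Vps8, of the endosomal CORVET tether, at 26.6 and 49.6 against 6.20 and 10.2 CPM (log2 ratio -2.26), with the other control overlapping at 25.6 and 6.45 CPM. Solute carriers had 12 and 11 among 114. Wnt, Notch and growth factor genes had 5 and 3 among 34, and Gab1, a docking protein of receptor kinases, had 15.99 and 9.07 against 40.2 and 26.3 CPM (log2 ratio 1.45). The junction and Hippo gene Nf2 had 15.2 and 9.16 against 31.8 and 29.1 CPM (log2 ratio 1.33), with the other control overlapping at 35.2 and 25.2 CPM. Lipid genes had 1 and 3 among 20, and Srebf1, a transcription factor of lipid synthesis, had 27.8 and 24.2 against 7.12 and 12.9 CPM (log2 ratio -1.41), with the other control overlapping at 9.84 and 18.4 CPM. Of 17 p53 target and cell death genes 4 were called higher and 2 lower. Casp2, an initiator caspase, had 21.7 and 11.9 against 67.8 and 54.98 CPM (log2 ratio 1.89), and the abundant survival gene Bcl2l10 had 4041 and 4104 against 3950 and 3777 CPM (log2 ratio -0.07). Irf1, an interferon-regulatory factor, had 6.53 and 7.60 against 26.7 and 16 CPM (log2 ratio 1.62), and 20.02 and 39.9 CPM in the other control. Zfp zinc finger genes, the largest family counted, had 20 and 17 among 184 (10.9% and 9.24%), near the shares of all genes.

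Markers of the cell type were read beside these counts. All 20 oocyte and zygote markers were measured, and their summed level was 18000 and 18000 CPM in the control and 24700 and 19900 CPM in the injected libraries, with 5 higher, 3 lower and Npm2 the 1 called. Of 24 cumulus and granulosa markers 19 had no count in any of the 4 libraries and 2 were measured, and the list's summed level was 57.6 and 88.6 CPM in the control against 162 and 65.7 CPM in the injected libraries, made up of Cyp19a1 (34.5 and 88.6 against 162 and 65.7 CPM) and Star (23.2 and 0 against 0 and 0 CPM). Of 18 sperm markers 13 had no count and 1, Odf2, was measured, and of 18 blood and immune markers 13 had no count and 2, Pax5 and Clec10a, were measured. Pax5 had 0.0919 and 0 against 21.9 and 46.1 CPM and Clec10a 7.08 and 30.3 against 0 and 0 CPM, each in 1 sample and absent or nearly absent in the other. These 2 are not among the 56: the log2 ratio of Pax5 was 7.08 to 8.08 with any 1 library left out, and that of Clec10a was -7.71, and -5.84 without control library 2. The part of other cell types in the results was not tested. In RNA from pooled or whole embryos, fewer cells of a kind and less RNA per cell cannot be told apart.

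Called genes differed in kind and length as well as level. Protein-coding genes made up 89.1% of those called higher and 82.0% of those called lower, beside 85.3% of all measured genes, and pseudogenes 5.5%, 10.3% and 8.8%. The median exon length as the authors' table gives it was 4733 bases for genes called higher, 3958 for those called lower and 4467 for all. By 4 equal classes of length, the share called lower went from 13.7% in the shortest (57 to 2544 bases) through 12.6% and 10.6% to 8.75% in the longest (7213 to 123179 bases), and the share called higher from 7.42% to 9.98%. The median log2 ratio went with it, from -0.12 to 0.12. The median level also differed between these classes, from 28.7 CPM in the shortest to 48.7 CPM in the longest. By chromosome, the lower share was 17.3% on chromosome 7 (89 of 515 genes) and 8.38% to 14.1% on the other chromosomes, leaving out the 15 mitochondrial features, while the share called higher on chromosome 7 was 9.32%. The part of length and level in the calls was not tested.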

How the data were processed

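RNA of mouse zygotes was read as 2 deposited columns of counts for each of 4 samples, 1 sample per group. The deposited values are whole-number read counts per gene with gene coordinates and exon lengths, in the layout of featureCounts per the file headers. FastQC, Bowtie2, featureCounts and DESeq2, and build mm10, are named in the submitters' processing notes, without roles or versions. cDNA was PCR-amplified per the labels' protocols, and no molecular identifiers are stated, so intervals cover counting error only.

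Here the columns of a sample were treated as libraries, not replicates of the condition, and summed per sample. CPM was scaled by TMM factors (edgeR 4.0.16, R 4.3.3) over the 4 libraries, or over the 2 sums, of the S31A experiment, and log2 ratios used a prior count of 2. CPM printed for the other experiment was scaled over its own 4 libraries, injected ones included, so the 2 sets of values were not scaled together. Where all 4 control libraries were used, TMM ran over the S31A libraries and the other controls together. A gene was kept if either sum reached 10 CPM. Where a summed sample had 0 counts, the ratio was set against 3 counts in that sum. edgeR's quasi-likelihood test was applied to the 4 libraries, as was DESeq2 1.42.0, after the code was tested on simulated data. GENCODE M21 matched 98.2% of measured genes.

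Genes were named by rule: the 15 furthest higher and lower called genes with at least 10 CPM in both libraries of the higher sample and within 3-fold there, the 10 furthest each way at a mean of 200 CPM or more, up to 5 called members and the most abundant member of each list, and the H3.3 genes with both copies. The first 2 sets were ranked by the bound of the interval that lies closer to 0, or by the ratio for the abundant genes, and predicted gene names were left out. The members and gene lists were chosen with earlier results of these data known. No column of another sample was present.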

Additional observations from a re-analysis of the deposited data

Results flagged for a closer look

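Of the 8136 measured genes, 528 (6.49%) had both injected libraries on 1 side of both control libraries with S31A and on the opposite side in the experiment labelled 3.3-MO, 264 of them higher with S31A and 264 lower, while 759 (9.33%) lay on the same side in both. Of 116 genes named above, not counting H3f3c and Map1lc3b, 18 (15.52%) lay on opposite sides. The difference between the experiments was tested for none of these genes. Many were named because their libraries lay on 1 side with S31A, so this share cannot be compared with the 6.49% of all measured genes. Of these, 3 are the H3.3 genes. H3f3b had a log2 ratio of injected over control of -8.34 with MO and 0.65 with S31A. Gm6485 had -6.94 with MO and 6.21 with S31A, and Gm37486 had -8.80 with MO and 6.23 with S31A. Reads shared by H3f3b and these copies make the split between the 3 genes uncertain.

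The other 7 on the higher side with S31A had these log2 ratios with MO. Gab1 had -7.47, Simc1 -5.93, Irf1 -2.17 and Aqr -1.46. Pik3c3 had -1.36, Bmp15 -1.12 and Pax5 -0.92. The 8 on the lower side with S31A had a log2 ratio above 0 with MO, which was 2.14 for Astl, 0.63 for Ubn1, 0.61 for Fbxw23 and 0.55 for Tcl1. It was 0.53 for Pou5f1, 0.45 for Mphosph8, 0.45 for Bcl2l10 and 0.34 for Odf2. Tcl1, given above only by the name of its family, had a log2 ratio of -0.16 with S31A. The MO experiment had its own control sample, and the opposite sides are a description of 1 sample in each group.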

How the results depend on the processing

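The counts of called genes moved mainly with the filter and the libraries used. Genes called higher and lower numbered 1196 and 1454 with a filter of 1 CPM, 1288 and 1545 with no filter, 249 and 252 at 50 CPM, 292 and 372 at 4-fold, and 397 and 611 when all 4 control libraries had to lie on 1 side. With 1 library left out they ranged from 1223 to 1457 higher and 1408 to 1573 lower, and genes on 1 side at any size from 5754 to 5975, since fewer libraries make the rule easier to meet. Genes on 1 side numbered 1655 at 50 CPM. Scaling by total counts gave 635 higher and 1061 lower, and DESeq2 size factors 733 and 938. edgeR called 2 genes, 5 at 50 CPM, and 0 to 2 with 1 library left out, where the lone library of an arm is assumed to vary like the other arm, and DESeq2 called 595. The cause of the difference between edgeR and DESeq2 was not tested. Of 331 named genes, 0 changed sign where called, and 179 of 261 called ones stayed at least 2-fold without each library. Of 70 list medians, 23 kept their sign under all 7 scaling, prior and leave-out alternatives.

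Nothing in the labels says whether library numbers pair the columns. The difference of the 2 control libraries and that of the 2 injected libraries had a Pearson r of -0.013 across 8136 genes. With libraries this far apart, such a value cannot exclude a batch shared by like-numbered columns. With the replicate block edgeR called 2 genes. Of the genes with a mean under 10 CPM, 59.6% had a library at 0, and the part of depth in this was not tested.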
